A study of Homo sapiens with 9 samples.

Results

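The genes described here encode 10 surface molecules by which stem and progenitor cells, and the blasts of acute myeloid leukemia (AML), are recognised or targeted. They are CD34, KIT, FLT3, CD33, CD38, PROM1, CD44, CD47, IL3RA and CD52. They were chosen by name, with earlier results of these data known, and looked up in a table of 16612 genes. A row was found for 8 of the 10 genes. CD38 and PROM1 had no row in the table used here and were not analysed here. With EVI1 knockdown, CD34, KIT, CD44, CD47 and CD52 RNA fell with each of the shRNAs. FLT3 RNA rose with one shRNA and fell with the other, IL3RA RNA rose with sh#16, and CD33 RNA changed little.

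HNT34 is an established human AML cell line with high expression of EVI1, a transcription factor whose gene is listed as MECOM. Its cells were transduced with an shRNA vector, pZIP-hEF1a-RFP-Puro, which also carries a red fluorescent protein and resistance to puromycin, and were collected 3 days after selection. The shRNA was either sh#16 or sh#87, both directed against EVI1, or one without a target (NT), so that NT cells share the line, the vector and the selection with the knockdown cells. Each group had 3 libraries of polyadenylated RNA, the knockdown cells are transduced populations of 1 cell line, and a label field gives #18 where the titles of the sh#87 libraries give 87.

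The libraries held 17096170 to 43502389 counts. MECOM had 570, 503 and 440 CPM (counts scaled to a common library size) in the NT libraries, 146, 143 and 146 CPM with sh#16 and 109, 107 and 106 CPM with sh#87, so that the target was 3.50-fold lower with sh#16 and 4.70-fold lower with sh#87. Mitochondrially encoded genes took 15.9%, 11.6% and 4.69% of the counts in NT libraries 1, 2 and 3, at most 2.88% with sh#16 and at most 5.97% with sh#87. The biological coefficient of variation was 24.9% among NT, 3.75% among sh#16 and 6.97% among sh#87 libraries. The labels do not say whether the libraries of a group came from separate cultures, so p-values measure the spread between these libraries, which may be technical. Sums of markers are scaled to total counts alone, and single genes also by TMM. All 6 pan-leukocyte markers had a row, and their sum was lower with each shRNA without overlap, at 1900 to 2390 CPM in NT, 1670 to 1700 CPM with sh#16 and 1170 to 1190 CPM with sh#87. Within that sum PTPRC alone fell from a mean of 853 CPM in NT to 121 CPM with knockdown. The sum therefore does not describe each of the 6 markers. None of 10 erythroid markers had a row, and of 7 myeloid markers MPO and CSF3R had none. The other 5 together took 274 to 469 CPM in NT, 441 to 451 CPM with sh#16 and 250 to 254 CPM with sh#87. Summed markers of monocytes and macrophages (4 of 8 in the table, CD14 not among them) took 49.2 to 64.3 CPM in NT, 108 to 113 CPM with sh#16 and 75.6 to 83.2 CPM with sh#87. Those of megakaryocytes (3 of 8) took 226 to 559, 110 to 117 and 56.7 to 63.2 CPM in the same order. Within that sum ITGB3 went the other way, from a mean of 0.526 CPM in NT to 2.41 CPM with knockdown. Summed markers of stromal, endothelial and epithelial cells (5 of 8) took 292 to 367, 193 to 196 and 145 to 146 CPM. Those of B lymphoid cells (3 of 7) took 17.0 to 46.5, 6.08 to 6.57 and 2.84 to 3.50 CPM. Both of these sums were lower with each shRNA. The part of any of these in the results below was not tested. In bulk RNA of 1 cell line, fewer cells expressing a marker cannot be told apart from less RNA per cell.

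CD34 is a sialomucin of stem and progenitor cells and of endothelium, and it is the marker by which immature blood cells are sorted. KIT and FLT3 are receptor tyrosine kinases which, when bound by stem cell factor (KITLG) and FLT3 ligand (FLT3LG), drive the growth of progenitors through adaptors, RAS and STAT proteins. IL3RA (CD123) is the ligand-binding chain of the interleukin 3 receptor and signals with the shared chain CSF2RB. CD33 is a sialic-acid-binding lectin of myeloid cells, CD44 is the receptor for hyaluronan in the marrow niche, CD47 tells macrophages through SIRPA not to engulf the cell, and CD52 is a small glycoprotein anchored in the membrane of leukocytes. Several of these molecules are targets of antibodies or kinase inhibitors in AML. The libraries measured RNA, and protein at the cell surface was not analysed here.

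The stretches upstream of 4 of the genes are shown because they stand for the main patterns: CD34 and KIT fell with both shRNAs, FLT3 moved apart between them, and IL3RA was higher with sh#16. Each holds the 200 bases before the gene start in RefSeq on GRCh38.p14, read 5′ to 3′ on the gene's own strand. They lie at chr1:207911126-207911325 (minus strand) for CD34, chr4:54657757-54657956 (plus) for KIT, chr13:28100577-28100776 (minus) for FLT3 and chrX:1336585-1336784 (plus) for IL3RA. The start used in HNT34 cells may be another one. Capitals mark matches on either strand to the Sp1 motif GGGCGG, the E-box CACGTG, the core promoter element TATAAA, the GATA motif AGATAA, the ETS motif GGAAGT or the RUNX motif TGTGGT, the last 3 of which are not among the letters of these 4 stretches.
CD34: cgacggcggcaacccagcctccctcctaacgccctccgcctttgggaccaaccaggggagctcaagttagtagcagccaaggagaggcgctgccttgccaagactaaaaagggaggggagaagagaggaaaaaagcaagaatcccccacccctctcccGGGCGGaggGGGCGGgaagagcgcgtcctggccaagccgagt
KIT: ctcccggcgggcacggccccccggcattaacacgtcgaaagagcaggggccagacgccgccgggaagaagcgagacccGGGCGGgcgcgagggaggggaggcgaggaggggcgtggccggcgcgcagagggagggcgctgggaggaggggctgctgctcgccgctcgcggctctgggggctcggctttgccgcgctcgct
FLT3: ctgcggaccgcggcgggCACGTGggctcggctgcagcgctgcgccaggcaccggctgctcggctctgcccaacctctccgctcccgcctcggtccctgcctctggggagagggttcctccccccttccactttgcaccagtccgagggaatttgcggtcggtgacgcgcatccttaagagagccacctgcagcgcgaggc
IL3RA: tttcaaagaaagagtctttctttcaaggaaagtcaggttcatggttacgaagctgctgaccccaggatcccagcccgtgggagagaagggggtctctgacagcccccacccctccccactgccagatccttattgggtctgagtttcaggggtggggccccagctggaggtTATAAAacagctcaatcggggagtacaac
The CD34 stretch held GGGCGG 2 times, with its first base 42 and 33 bases before the start, and the KIT stretch held it once, 122 bases before the start. CACGTG was found 183 bases before the FLT3 start. TATAAA stood 29 bases before the IL3RA start. The stretches held 12 CpG for CD34, 28 for KIT, 20 for FLT3 and 3 for IL3RA, against a median of 9 over 35116 RefSeq stretches of the same length. Among those stretches, 40.1% held GGGCGG, 5.49% CACGTG, 8.59% TATAAA, 7.16% AGATAA, 16.7% GGAAGT and 8.72% TGTGGT. A match describes the letters and is no evidence of a bound site.

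CD34 showed the largest change among the 8 genes in every comparison. The gene lies at chr1:207880972-207911125 on the minus strand. Its RNA was at 754, 767 and 666 CPM in NT, at 117, 118 and 114 CPM with sh#16 and at 42.4, 41.3 and 43.5 CPM with sh#87. The 3 groups did not overlap, with every sh#87 library below every sh#16 library and all of these below NT. With both shRNAs as 1 group the *log2 fold change* was -3.20 ± 0.38 (SE, *Adj.P* 3.31e-05), or 9.21-fold lower. CD34 was 6.29-fold lower with sh#16 (*log2 fold change* -2.65 ± 0.07, *Adj.P* 2.02e-08) and 17.2-fold lower with sh#87 (-4.11 ± 0.08, *Adj.P* 3.44e-09). These comparisons share the NT libraries. Compared directly, the sh#87 libraries were 2.74-fold below the sh#16 libraries (*log2 fold change* -1.46 ± 0.07, 95% interval -1.61 to -1.30, *Adj.P* 1.38e-05). Against the absolute fold changes of all 16312 genes tested, that of CD34 stood at the percentile of 94.0 with both shRNAs, 92.2 with sh#16 and 96.2 with sh#87.

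KIT, the receptor for stem cell factor, lies at chr4:54657957-54740715 on the plus strand. It had 85.0, 84.6 and 87.6 CPM in NT, 34.9, 34.7 and 33.3 CPM with sh#16 and 26.7, 28.4 and 28.0 CPM with sh#87. The groups again stood apart in the order NT, sh#16 and sh#87, and the libraries within a group lay close together. KIT was 2.77-fold lower with both shRNAs (*log2 fold change* -1.47 ± 0.10, *Adj.P* 1.04e-06), 2.51-fold lower with sh#16 (-1.33 ± 0.06, *Adj.P* 1.97e-07) and 3.10-fold lower with sh#87 (-1.63 ± 0.06, *Adj.P* 4.36e-08). The difference between the shRNAs was small (-0.31 ± 0.06, 95% interval -0.45 to -0.17, *Adj.P* 0.00530). This call was lost without NT replicate 2 and without any one sh#16 or sh#87 library, where *Adj.P* was between 0.0112 and 0.0293.

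KITLG, the ligand of KIT, went the other way. It had 46.1, 45.5 and 45.5 CPM in NT, 91.3, 83.4 and 91.3 CPM with sh#16 and 67.8, 65.4 and 69.6 CPM with sh#87. All 6 knockdown libraries were above NT, with a *log2 fold change* of 0.77 ± 0.13 (*Adj.P* 3.81e-04) with both shRNAs, and the sh#87 libraries were below the sh#16 libraries (-0.39, *Adj.P* 0.00194).

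FLT3 was the only one of the 8 genes to pass the test in opposite directions with the shRNAs. It lies at chr13:28003274-28100576 on the minus strand and was expressed at a low level, with 12.6, 11.1 and 11.6 CPM in NT, 16.7, 15.8 and 14.6 CPM with sh#16 and 8.10, 8.24 and 8.24 CPM with sh#87. Every sh#16 library was above, and every sh#87 library below, the NT libraries. FLT3 rose 1.33-fold with sh#16 (*log2 fold change* 0.41 ± 0.09, *Adj.P* 0.00217) and was 1.44-fold lower with sh#87 (-0.52 ± 0.09, *Adj.P* 5.01e-04). The direct comparison of sh#87 with sh#16 gave -0.94 ± 0.09 (95% interval -1.14 to -0.74, *Adj.P* 1.99e-04), a 1.92-fold difference. With both shRNAs there was a *log2 fold change* of 0.02 ± 0.27 (95% interval -0.57 to 0.61, *Adj.P* 0.947), a value whose sign turned when single libraries were left out. The rise with sh#16 passed by a narrow margin and was lost without NT replicate 2 (*Adj.P* 0.0111), sh#16 replicate 1 (0.0124) or sh#16 replicate 2 (0.0108), and with a weight per group (0.0189). The reads behind FLT3 were 162 to 729 per library. Its ligand FLT3LG had 2.66, 5.40 and 5.26 CPM in NT, 3.90, 3.98 and 4.23 CPM with sh#16 and 2.91, 2.46 and 3.00 CPM with sh#87, and did not pass with both shRNAs (-0.38, *Adj.P* 0.200).

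**Figure D1:**
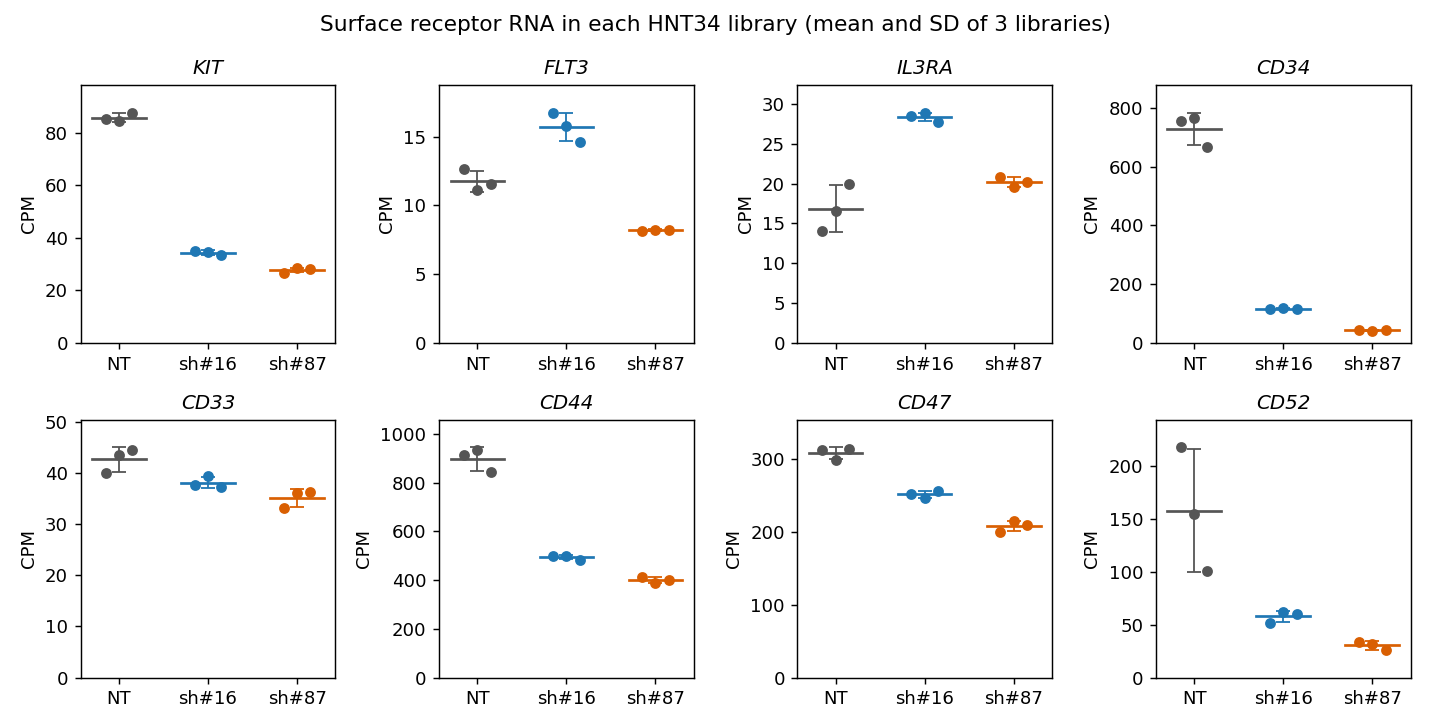
Level in CPM of the 8 surface genes, 1 panel per gene with its own linear axis from 0, in the NT, sh#16 and sh#87 libraries. Points are libraries, horizontal lines group means and bars the SD of 3 libraries, and CD34 steps down from a mean of 729 CPM in NT to 116 CPM with sh#16 and 42.4 CPM with sh#87, while FLT3 lies above NT with sh#16 and below it with sh#87.

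IL3RA, the interleukin 3 receptor chain at chrX:1336785-1382689 (plus strand), had 14.0, 16.6 and 19.9 CPM in NT, 28.6, 28.8 and 27.8 CPM with sh#16 and 20.9, 19.6 and 20.2 CPM with sh#87. The sh#16 libraries lay above all others, whereas the sh#87 libraries overlapped the highest NT library. IL3RA rose 1.68-fold with sh#16 (*log2 fold change* 0.75 ± 0.12, *Adj.P* 3.78e-04). It did not pass with sh#87 (0.26 ± 0.12, 95% interval -0.01 to 0.53, *Adj.P* 0.0710), with both shRNAs (0.52 ± 0.18, *Adj.P* 0.0202) or between the shRNAs (-0.49 ± 0.12, *Adj.P* 0.0126). The coefficient of variation among NT libraries was 17.6%, and 1 library decided the call: without NT replicate 3 the *log2 fold change* with sh#87 was 0.38 (*Adj.P* 0.00169), and without NT replicate 1 it was 0.13 (*Adj.P* 0.191). Without NT replicate 1 or 3 the difference between the shRNAs also passed (*Adj.P* 0.00141 and 5.78e-04). IL3RA lies in the region shared by X and Y, as does CSF2RA, and how reads from both copies were counted is not given in the sources used here.

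CSF2RB, the partner chain of IL3RA, moved down while IL3RA did not, and CSF2RA and IL1RAP of other receptors also fell. CSF2RB, the shared signalling chain, had 26.1, 29.4 and 31.9 CPM in NT, 18.3, 18.4 and 19.4 CPM with sh#16 and 9.55, 9.85 and 9.77 CPM with sh#87. It fell with both shRNAs (*log2 fold change* -1.04 ± 0.26, *Adj.P* 0.00404), and the sh#87 libraries were lower than those of sh#16 (-0.94, *Adj.P* 2.00e-04). CSF2RA, the GM-CSF receptor chain that pairs with CSF2RB, was at 26.8 to 29.2 CPM in NT, at 13.2 to 14.8 CPM with sh#16 and at 10.3 to 11.7 CPM with sh#87 (-1.14 ± 0.12 with both, *Adj.P* 1.64e-05). IL1RAP, the accessory chain of the interleukin 1 receptor and an AML stem cell marker, fell from between 168 and 184 CPM to between 49.6 and 61.8 CPM (-1.67 ± 0.08, *Adj.P* 1.42e-07).

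CD33, the myeloid lectin targeted by antibody conjugates, lies at chr19:51211076-51240016 on the plus strand. It had 39.9, 43.5 and 44.4 CPM in NT, 37.6, 39.3 and 37.2 CPM with sh#16 and 33.1, 36.1 and 36.3 CPM with sh#87. All 6 knockdown libraries were below the NT libraries, yet the size of the difference was the smallest of the 6 genes of which this was true. The *log2 fold change* was -0.22 ± 0.08 with both shRNAs (95% interval -0.41 to -0.04, *Adj.P* 0.0343) and -0.17 ± 0.07 with sh#16 (*Adj.P* 0.0624), neither of which passed. With sh#87 it passed at -0.28 ± 0.07 (*Adj.P* 0.00593), but not without NT replicate 2 or without any one knockdown library, where *Adj.P* was between 0.0124 and 0.0290. It was also lost with upper-quartile normalization (-0.16, *Adj.P* 0.0597), in a fit of sh#87 and NT alone (0.0306) and with a weight per group (0.0238), while DESeq2 called CD33 with both shRNAs (-0.24, *Adj.P* 0.00567). The difference between the shRNAs was -0.11 ± 0.07 (95% interval -0.28 to 0.05, *Adj.P* 0.256).

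CD44, the hyaluronan receptor, was among the most abundant of these RNAs. It lies at chr11:35139171-35232402 on the plus strand and had 912, 936 and 844 CPM in NT, 498, 499 and 484 CPM with sh#16 and 411, 390 and 401 CPM with sh#87. The groups did not overlap. CD44 was 2.01-fold lower with both shRNAs (*log2 fold change* -1.01 ± 0.11, *Adj.P* 1.92e-05), 1.83-fold lower with sh#16 (-0.87 ± 0.07, *Adj.P* 3.59e-06) and 2.25-fold lower with sh#87 (-1.17 ± 0.07, *Adj.P* 3.81e-07). The shRNAs differed by -0.30 ± 0.07 (95% interval -0.45 to -0.15, *Adj.P* 0.00821), a call lost without NT replicate 2 or any one knockdown library (*Adj.P* 0.0128 to 0.0399) and with upper-quartile (0.0124) or RLE normalization (0.0142). The counts sum the splice forms of CD44, which were not analysed here.

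CD47, the signal that restrains macrophages, lies at chr3:108043091-108091031 on the minus strand. It had 313, 299 and 313 CPM in NT, 252, 247 and 257 CPM with sh#16 and 201, 215 and 209 CPM with sh#87. Its groups were ordered as those of CD34 but the steps were narrow, 1.23-fold lower with sh#16 (*log2 fold change* -0.30 ± 0.05, *Adj.P* 9.82e-04) and 1.49-fold lower with sh#87 (-0.57 ± 0.06, *Adj.P* 1.18e-05). With both shRNAs it was -0.43 ± 0.10 (*Adj.P* 0.00291), which was lost without NT replicate 2 (*Adj.P* 0.0106), with upper-quartile normalization (-0.32, *Adj.P* 0.0137) and with a weight per group (0.0169). Upper-quartile normalization also ended the call with sh#16, at -0.19 (*Adj.P* 0.0139). The difference between the shRNAs was -0.27 ± 0.05 (95% interval -0.40 to -0.15, *Adj.P* 0.00579) and was lost without NT replicate 2 or any one knockdown library (*Adj.P* 0.0112 to 0.0318) and with RLE normalization (0.0102).

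The binding partners of CD47 took separate courses. SIRPA, its receptor on phagocytes, had 47.0, 54.4 and 65.5 CPM in NT, 9.24, 10.7 and 10.5 CPM with sh#16 and 6.94, 5.78 and 6.56 CPM with sh#87, 6.72-fold lower with both shRNAs (*log2 fold change* -2.75 ± 0.20, *Adj.P* 1.25e-06). SIRPA shares sequence with SIRPB1, so that its counts are uncertain to the extent that reads were split between them. THBS1, a secreted thrombospondin that also binds CD47, had 188, 198 and 210 CPM in NT, 165, 162 and 163 CPM with sh#16 and 428, 459 and 438 CPM with sh#87. It fell with sh#16 (-0.29, *Adj.P* 0.00227) and rose with sh#87 (1.15, *Adj.P* 2.78e-07), and the difference between them was 1.44 (*Adj.P* 7.17e-06).

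CD52, the glycoprotein bound by alemtuzumab, fell with both shRNAs from a level that varied among the NT libraries. It lies at chr1:26317958-26320523 on the plus strand and had 218, 154 and 101 CPM in NT, 51.9, 62.0 and 60.2 CPM with sh#16 and 34.1, 31.9 and 25.9 CPM with sh#87. The groups did not overlap. CD52 was 3.57-fold lower with both shRNAs (*log2 fold change* -1.83 ± 0.30, *Adj.P* 3.07e-04), 2.73-fold lower with sh#16 (-1.45 ± 0.24, *Adj.P* 5.35e-04) and 5.16-fold lower with sh#87 (-2.37 ± 0.25, *Adj.P* 2.19e-05). The shRNAs differed by -0.92 ± 0.24 (95% interval -1.47 to -0.37, *Adj.P* 0.0188), which passed without NT replicate 1 (*Adj.P* 0.00226) or NT replicate 3 (8.76e-04). The NT library with the highest mitochondrial share, 15.9%, had the most CD52 and the least IL3RA, and the one with the lowest share, 4.69%, the reverse. The part of this in the results was not tested. With the mitochondrially encoded genes left out, CD52 was at -1.83 and IL3RA at 0.53 with both shRNAs. This setting leaves the other counts of each library as they were, so it cannot decide that question.

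**Figure D2:**
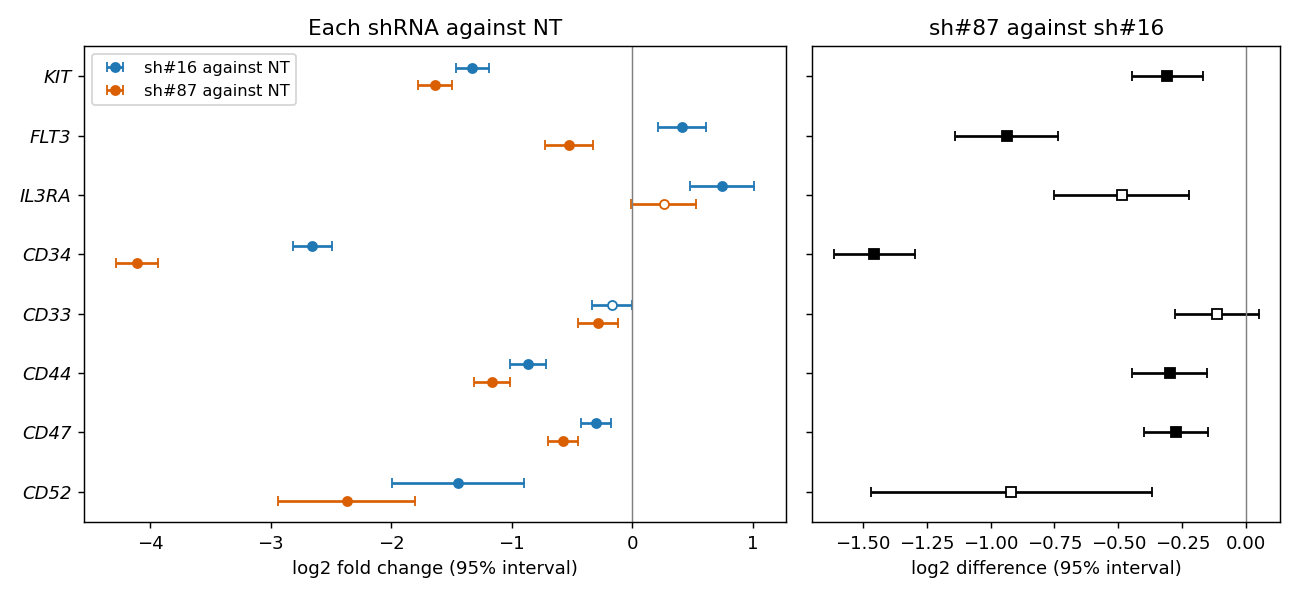
The *log2 fold change* of each of the 8 genes for sh#16 (blue) and sh#87 (orange) against NT on the left, and the log2 difference of sh#87 against sh#16 on the right, with 95% intervals from edgeR and filled symbols where *Adj.P* was at most 0.01. CD34 lies farthest from 0 in both panels, down to -4.11 with sh#87, and FLT3 stands at 0.41 with sh#16 and at -0.52 with sh#87.

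As a group, the genes that passed the test (edgeR, *Adj.P* at most 0.01) were more often lower than higher. Because the genes were chosen with earlier results of these data known, the shares beside those of all genes are descriptive only. With both shRNAs 5 of 8 were lower, against 29.7% of all 16312 genes tested, and 0 of 8 were higher, against 30.1%. At an unadjusted p under 0.05, 1 gene (IL3RA) was higher, which DESeq2 called as well and limma-voom did not. Upper-quartile normalization, which moved the median of all genes from 0.05 to 0.16 on the log2 scale, gave 1 higher and 4 lower. With sh#16, 2 of 8 were higher (FLT3 and IL3RA, background 29.8%) and 5 were lower (background 30.2%). With sh#87, 7 of 8 were lower (background 33.6%) and 0 were higher by edgeR (background 34.3%), DESeq2 or limma-voom, with 0 higher at an unadjusted p under 0.05. The median *log2 fold change* of the 8 genes was -0.72 with both shRNAs, -0.58 with sh#16 and -0.87 with sh#87, beside medians of all genes of 0.05, 0.04 and 0.04.

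Fewer of these genes were differentially expressed genes (DEGs), for which the *log2 fold change* also had to reach 2 or more in either direction. CD34 was a DEG with both shRNAs, where 5.66% of all genes were lower DEGs, and with sh#16, where 4.84% were. With sh#87, CD34 and CD52 were lower DEGs, as were 7.14% of all genes. All 6 knockdown libraries lay below all NT libraries for CD34, KIT, CD33, CD44, CD47 and CD52, which are 6 of 8 genes, while 31.9% of all genes did so. Taken singly, sh#16 libraries lay below NT for the same 6 genes (background 35.6%) and above it for FLT3 and IL3RA (background 38.7%). The sh#87 libraries lay below NT for 7 of 8 genes (background 37.5%).

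In the direct comparison of the shRNAs, each of the 8 genes had all 3 sh#87 libraries below all 3 sh#16 libraries, an arrangement seen for 34.4% of all genes. By edgeR, 5 of 8 were lower with sh#87 (CD34, KIT, FLT3, CD44 and CD47), beside 9.42% of all genes. None was higher by edgeR, DESeq2 or limma-voom, and 0 were higher at an unadjusted p under 0.05, where 7 were lower. The NT libraries, which varied most, enter this fit. A fit of the sh#16 and sh#87 libraries alone called 7 of 8 lower, all but CD33, with *Adj.P* of 2.91e-05 for IL3RA, 2.95e-05 for CD52, 3.08e-04 for KIT, 1.19e-04 for CD44 and 2.14e-04 for CD47, and DESeq2 called the same 7 genes. The median difference was -0.40, beside -0.02 for all genes. MECOM itself was lower with sh#87 than with sh#16 (-0.43 ± 0.09, *Adj.P* 0.00661), though not with upper-quartile (0.0109) or RLE normalization (0.0124). The MECOM call was lost in 12 of 22 alternatives. Among these were the fits without NT replicate 2 (*Adj.P* 0.0134), without sh#16 replicate 1 (0.0271) and with a replicate block (0.0140). Of the 5 calls, those of CD34 and FLT3 held in every set of libraries with 1 left out.

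The order of the levels was compared on the scale of CPM per kb, using the length of 1 GENCODE v44 transcript per gene, and depends on the transcript chosen. In NT libraries CD52 was highest with a mean of 338 CPM per kb, followed by CD44 with 165, CD34 with 91.5, CD47 with 58.3, CD33 with 29.1, KIT with 16.7, IL3RA with 10.9 and FLT3 with 3.07. No neighbours in this order overlapped in their libraries. With sh#16 CD34 stood at 14.6 CPM per kb, below IL3RA at 18.4 and CD33 at 26.0, again with no overlap between neighbours. With sh#87 CD34, at 5.32 CPM per kb, could not be separated from KIT at 5.38, nor CD44 at 73.8 from CD52 at 65.6. CD34 thus stood below CD52 and CD44 only in NT, below these and CD47, CD33 and IL3RA with sh#16, and level with KIT in front of FLT3 with sh#87. FLT3 remained the lowest in all groups, at 4.10 CPM per kb with sh#16 and 2.14 with sh#87.

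**Figure D3:**
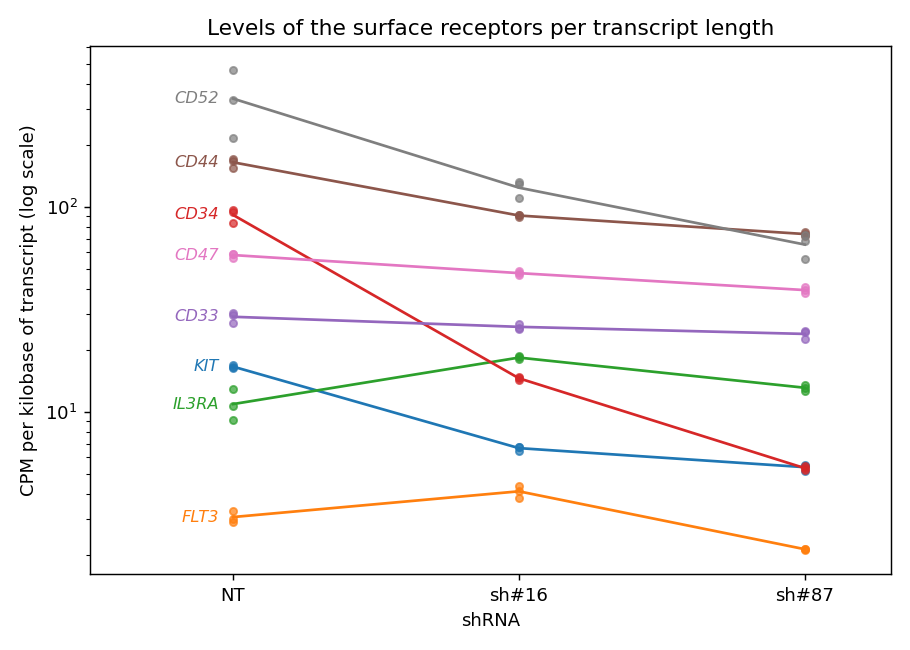
Level of the 8 genes in CPM per kb of transcript (log axis) in NT, sh#16 and sh#87, with 1 point per library and lines joining the group means. CD34 moves from a mean of 91.5 in NT, between CD44 and CD47, to 5.32 with sh#87, where its libraries overlap those of KIT.

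The genes around these receptors were described from lists of ligands, receptors, signalling proteins, paralogs or looser relatives, and other surface markers. These lists too were chosen with earlier results of these data known. Together the lists named 151 genes besides the 10, of which 112 had a row and 111 were tested. With both shRNAs 22 were higher, 57 lower and 32 did not pass, with a median *log2 fold change* of -0.55, where 30.1% of all genes were higher and 29.7% lower with a median of 0.05. With sh#16 they were 25, 58 and 28 (median -0.41), beside 29.8% and 30.2% of all genes higher and lower. With sh#87 they were 23, 65 and 23 (median -0.70), beside 34.3% and 33.6%. Between the shRNAs 1 gene was higher with sh#87, THBS1, and 32 were lower, beside 8.29% and 9.42%. The counts of the single lists below are for both shRNAs and are to be read against the same 30.1% and 29.7%. Apart from PODXL and BST1, chosen as direct partners, the genes named from each list below are among the furthest changed in each direction. They were taken among genes whose mean reached 1 CPM in NT or knockdown libraries, and each passed with both shRNAs.

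Among ligands and counter-receptors, 10 of 18 were tested, with 3 higher and 4 lower (median -0.55). SIGLEC10, the receptor for CD24 and CD52, fell from 25.7 to 1.91 CPM (means of NT and of knockdown libraries, *log2 fold change* -3.76). Among haematopoietic cytokine and growth factor receptors, 13 of 20 were tested, with 1 higher and 7 lower (median -1.04). EPOR, the erythropoietin receptor, rose from 2.25 to 11.9 CPM (2.38). PDGFRB, a receptor tyrosine kinase of the same family as KIT and FLT3, fell from 9.62 to 0.155 CPM (-5.92), which is near the level that 3 counts give in these libraries (0.069 to 0.176 CPM, counting error only).

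Receptor signalling adaptors and kinases had 2 higher and 14 lower among 20 (median -0.88). STAT5A, a transcription factor activated by KIT, FLT3 and IL3RA, fell from 353 to 47.9 CPM (-2.89), and PTPN6, the phosphatase SHP-1, from 215 to 50.4 CPM (-2.09). The adaptor GRB2 rose from 145 to 199 CPM (0.46), and the ubiquitin ligase CBLB also rose (0.50). Feedback genes of cytokine signalling had 3 higher and 5 lower of 14 (median -0.12), shares near those of all genes. SOCS2 and CISH, both targets of STAT5 that dampen receptors, fell from 208 to 65.3 CPM (-1.67) and from 108 to 42.0 CPM (-1.37). DUSP5, a phosphatase of ERK, rose from 8.86 to 87.2 CPM (3.29), and SPRY1, an inhibitor of receptor tyrosine kinase signalling, rose by a smaller amount (0.60).

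Of 16 genes listed as paralogs or looser relatives of the 10 surface genes, 7 were tested and 6 were lower (median -1.11). The sialomucin PODXL, a relative of CD34, had 142, 141 and 115 CPM in NT, 66.6 to 70.4 CPM with sh#16 and 54.6 to 55.6 CPM with sh#87 (-1.11 ± 0.11, *Adj.P* 1.30e-05). EMCN, an endothelial sialomucin also found on stem cells, fell from 29.6 to 3.55 CPM (-3.06), and the Siglec CD22 from 20.1 to 6.47 CPM (-1.64). PODXL2, the remaining member of the CD34 family, rose from 2.93 to 16.7 CPM (2.51). CD34 and PODXL were thus lower and PODXL2 higher with each shRNA.

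Partners of CD44 and hyaluronan had 5 higher and 7 lower of 15 tested out of 18 (median -0.35), of which the share higher was near the 30.1% of all genes. The hyaluronidase HYAL2 rose from 7.87 to 20.6 CPM (1.38), and HYAL3 rose by 0.92, a value that is uncertain because HYAL3 overlaps neighbouring genes. The hyaluronan receptor HMMR, which is also a gene of dividing cells, fell from 107 to 28.0 CPM (-1.94), and MMP14, a membrane protease that cleaves CD44, from 138 to 41.8 CPM (-1.72). Ectoenzymes of NAD and adenosine metabolism, the family of functions to which CD38 belongs, were lower in 4 of 7 tested genes out of 13 and did not pass in the other 3 (median -0.43). ADA fell from 34.4 to 10.2 CPM (-1.75) and its surface partner DPP4 from 21.5 to 8.39 CPM (-1.36). BST1, the paralog of CD38, had no row in the table used here.

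Other surface markers of stem cells and AML had 5 higher and 9 lower of 16 tested out of 22, with a median of -1.39. CD36, a scavenger receptor, fell from 8.46 to 0.499 CPM (-4.11), and CD96, a marker of AML stem cells, from 1.09 to 0.0718 CPM (-3.85), a level of 0 to 4 counts per knockdown library. FCGR2A, the Fc receptor CD32, rose from 10.2 to 48.6 CPM (2.24), a value that is uncertain because its paralogs are nearly identical, and PROCR, the protein C receptor of stem cells, rose from 6.38 to 20.8 CPM (1.70). A further list held 13 immunophenotype genes from the study's leukemic scores, with CD34, KIT, CD33, CD38, MYC and MECOM left out, and is therefore not the score itself. Of these 11 were tested, with 2 higher and 3 lower (median -0.14). Among these the leukocyte phosphatase PTPRC (CD45) fell from 853 to 121 CPM (-2.82) and CD4 from 30.6 to 13.0 CPM (-1.23), while the integrin chain ITGB3 rose from 0.526 to 2.41 CPM (2.20).

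**Figure D4:**
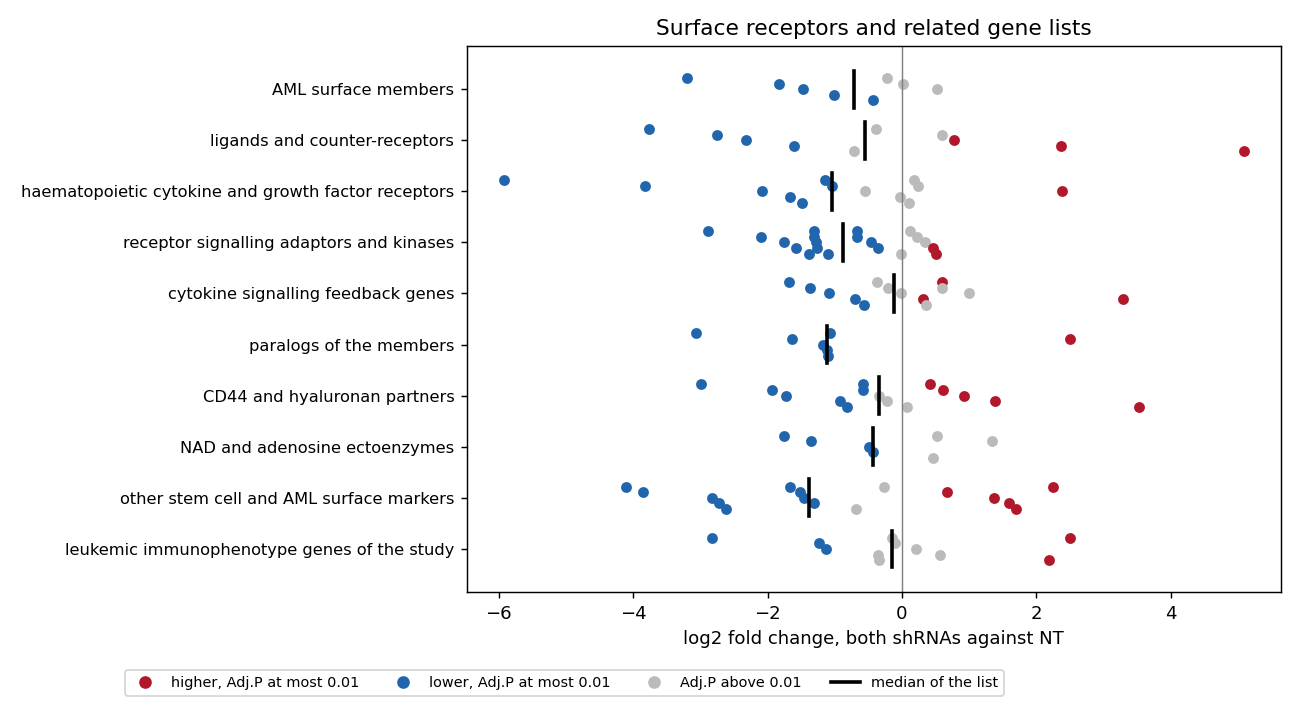
The *log2 fold change* with both shRNAs of the tested genes of the surface group and of 9 related lists, 1 point per gene, red or blue where the gene passed as higher or lower and grey where it did not, with a bar at the list's median. The list of the study's immunophenotype genes leaves out the surface genes, MYC and MECOM. The medians lie between -1.39 for other stem cell and AML surface markers and -0.12 for feedback genes, and some far points are genes under 1 CPM that the text does not name.

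For each of the 8 genes, the gene with the most similar course over the 9 libraries was sought among 11118 genes with a mean of at least 5 CPM. Likeness was the root mean square difference of log2 CPM, each gene centred on its own mean, and with so many genes close matches are found for most patterns. CD84, a leukocyte receptor of the SLAM family, lay 0.103 log2 units from CD34, whose own range was 4.21 log2 units, and had a *log2 fold change* of -3.28 with both shRNAs. NIPSNAP2 lay 0.0303 from KIT, UBE2T 0.114 from FLT3, SPATA13 0.0404 from CD33 and SERPINB6 0.0430 from CD44. ERLIN1 lay 0.0345 from CD47, RAC2 0.0663 from IL3RA and PFDN4 0.141 from CD52.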

How the data were processed

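RNA of HNT34 cells was sequenced from stranded polyadenylated libraries, 3 per group. Estimated counts for each gene in the 9 libraries were deposited by the authors as 1 table. Its header names salmon output and stands 1 column left of the values, while the study's methods and the submitters' processing notes name STAR. The strand setting of counting is not given in the sources used here. All values were whole. Groups came from the sample titles.

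Counts were analysed in R 4.3.3 with edgeR 4.0.16 (filterByExpr, TMM, quasi-likelihood test, Benjamini-Hochberg adjustment over 16312 genes). Both shRNAs against NT used a fit of 2 groups, and single shRNAs a fit of 3 groups. A gene passed at an adjusted p of at most 0.01. Differences between groups are log2 fold changes of edgeR, and CPM of single genes are TMM-scaled. Sums of marker genes and limits of detection were scaled to total counts only. Log2 CPM with a prior count of 2 were used only for the nearest genes and the check of replicate numbers. DESeq2 1.42.0, limma-voom (limma 3.58.1), other normalizations, filters and thresholds, a replicate block, other fits, no mitochondrial genes and each library left out were alternatives, to which a weight per group and the removal of MECOM and small RNA genes were added after seeing the data. The tests were tried on simulated data. Limits of detection of 3 counts per library cover counting error only.

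The 10 genes and all lists were chosen with earlier results of these data known. The text names these genes, MECOM, 9 direct partners, the 2 highest and 2 lowest genes of each related list that passed with at least 1 CPM, and the nearest gene of each of the 8, of which some are not reported here. Upstream stretches came from RefSeq on GRCh38.p14, and transcript lengths from GENCODE v44.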

Additional observations from a re-analysis of the deposited data

Results flagged for a closer look

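CD34 differed between the shRNAs by a *log2 fold change* of -1.46 (sh#87 against sh#16), with a tested difference (edgeR, *Adj.P* 1.38e-05). FLT3 differed by -0.938 (*Adj.P* 1.99e-04), with all libraries of sh#16 above and all of sh#87 below NT. The differences of KIT (-0.308), CD44 (-0.299) and CD47 (-0.273) were small and passed the same test.

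Among the 6 knockdown libraries, sh#16 replicate 2 had a total of 43502389 counts, far from the others, with a gap of 0.773 of the whole range of totals. About 1 in 20 groups is set apart in this way by chance.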

How the results depend on the processing

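Of 728 alternative values for the 8 genes in 4 comparisons, 624 kept direction and side of the threshold, 79 lost the call, 19 gained it and 6 turned sign. All 6 belong to FLT3 with both shRNAs (0.02): limma-voom gave -0.024, and leaving out 1 library gave -0.10 to 0.12, with -0.019 and -0.014 without NT replicate 2 or 3 and -0.095, -0.075 and -0.039 without sh#16 replicate 1, 2 or 3. The cause was not tested. A threshold of at least 1 on the absolute log2 fold change left 3 genes for sh#16, 4 for sh#87 and 1 in the direct comparison of the shRNAs. At a threshold of 2 there remained 1 gene when the shRNAs were joined, 1 for sh#16 alone, 2 for sh#87 alone and 0 in their direct comparison, and 25 genes over the related lists with the 8 genes, in place of 84. Leaving out 1 library gave 2 to 7 genes between the shRNAs, in place of 5, with 2 without NT replicate 2 or any knockdown library, while DESeq2 and a fit of these groups alone gave 7. Samples with the same replicate number did not deviate together (correlations from -0.139 to 0.0780). With 3 libraries per group, and NT varying most, this cannot exclude that the numbers pair the libraries. With a replicate block the direct comparison of the shRNAs kept 2 genes, sh#16 kept 7, sh#87 kept 6 and the joint comparison kept 4, with the calls of CD33 with sh#87 (*Adj.P* 0.0110), CD47 with both shRNAs (0.0112) and KIT, CD44 and CD47 between the shRNAs (0.0219 to 0.0265) lost. NT libraries varied most, which limits small differences such as that of CD33, and FLT3 rests on few reads.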
